A study of Homo sapiens with 12 samples.

Results

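A set of 10 genes that report on ERK signaling were followed in KELLY and SK-N-AS, 2 human neuroblastoma (NB) cell lines, with and without Erastin. These were the MAPK output genes DUSP4, DUSP5, DUSP6, SPRY2, SPRY4, SPRED1, ETV4, ETV5, PHLDA1 and EGR1, taken by name from the deposited count tables, and all 10 were found among 58735 gene names. KELLY carries amplified MYCN and SK-N-AS does not. Erastin, which blocks the import of cystine through system Xc, was used at 1 µM in KELLY and at 2 µM in SK-N-AS, and control cultures received the vehicle DMSO. RNA was taken after 24 h from 3 replicate cultures in each of the 4 groups, and all cultures were grown in RPMI medium with fetal bovine serum. Each line is a single established culture, so a difference between them is one between 2 cell lines. Dose and line cannot be told apart, nor can line and any order of library preparation.

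In the MAPK cascade, growth factor receptors load RAS with GTP, RAS engages RAF kinases, RAF phosphorylates MEK, and MEK phosphorylates ERK. Active ERK drives transcription through ETS and serum response factors, and many of the genes it switches on encode its own inhibitors, so that their transcripts serve as a readout of pathway output. Activating lesions of this cascade are known in NB, above all at relapse.

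Total counts per library lay between 24169796 and 29835670. The 10 genes had 32 to 1951 counts each per KELLY library and 324 to 15639 per SK-N-AS library, and all of them passed the filter on low counts in every comparison. Levels are given as CPM, that is counts relative to library size, with 1 TMM scaling over the 12 libraries. MYCN was at a mean of 5287 CPM in KELLY and 0.366 CPM in SK-N-AS with DMSO. All 8 adrenergic markers were lower and all 6 mesenchymal markers higher in SK-N-AS. TH was at 418 CPM in KELLY and 2.81 CPM in SK-N-AS, and VIM at 46.2 and 1455 CPM, while HAND2 remained at 498 CPM in SK-N-AS. Of 5 blood cell markers, CD3E and LYZ had no count in any library, and PTPRC was at 0 in KELLY but at 548 CPM in SK-N-AS. Replicate libraries also followed the GC content of genes to different degrees, which is described with ETV4 and SPRED1.

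Promoter sequence is shown for 3 of the genes, because PHLDA1 differed most between the lines, SPRY2 had the highest level per length in SK-N-AS, and EGR1 is the textbook target of serum response factor. Each is the stretch of 250 bases before a RefSeq start site on GRCh38.p14, written 5′ to 3′ on the strand of the gene. Capitals mark matches to the CArG box bound by serum response factor, to CCGGAA, a core of ETS sites, and to TGACG, the core of CREB sites, searched on both strands. The windows are chr5:138465229-138465478 (plus strand) for EGR1, chr12:76031777-76032026 (minus strand) for PHLDA1 and chr13:80341127-80341376 (minus strand) for SPRY2.
EGR1: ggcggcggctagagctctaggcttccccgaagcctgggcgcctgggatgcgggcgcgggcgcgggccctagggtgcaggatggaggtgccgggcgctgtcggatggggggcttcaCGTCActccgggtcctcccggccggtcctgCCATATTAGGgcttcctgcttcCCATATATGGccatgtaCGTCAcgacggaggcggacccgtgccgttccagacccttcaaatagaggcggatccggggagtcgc
PHLDA1: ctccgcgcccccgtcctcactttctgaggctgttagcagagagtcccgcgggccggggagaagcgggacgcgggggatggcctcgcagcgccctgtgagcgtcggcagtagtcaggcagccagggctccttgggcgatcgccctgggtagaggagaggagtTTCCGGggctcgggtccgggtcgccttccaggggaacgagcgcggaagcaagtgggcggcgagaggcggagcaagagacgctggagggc
SPRY2: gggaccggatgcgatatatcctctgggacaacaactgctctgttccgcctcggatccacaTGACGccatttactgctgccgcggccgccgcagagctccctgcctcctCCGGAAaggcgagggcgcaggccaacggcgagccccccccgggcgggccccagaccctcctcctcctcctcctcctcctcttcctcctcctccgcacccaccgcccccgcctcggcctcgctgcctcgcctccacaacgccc
The EGR1 window held 2 CArG boxes, which start 105 and 83 bases before the start site, and 2 reverse-strand matches to TGACG. A CArG box was found in 1.16% of 35116 windows of the same length over all genes, CCGGAA in 14.5% and TGACG in 21.2%. PHLDA1 held CCGGAA on the reverse strand, and the SPRY2 window shown held CCGGAA and TGACG once each, while the windows at the other 2 SPRY2 start sites held no match to any of the motifs. TGACTCA, the AP-1 site (4.20% of windows), was found in none of the 8 windows read for EGR1, SPRY4, PHLDA1, DUSP6, SPRY2 and SPRED1. GCGGGGGCG, the site of EGR1 itself (4.72% of windows), was found only in the SPRY2 window shown among these 8 and is not in capitals. No matches overlapped each other, and the windows of DUSP6 and SPRED1 held no match to any of the 5 motifs.

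The first comparison asked how far the 2 lines differ in MAPK output before treatment. All 10 genes were at higher levels in SK-N-AS than in KELLY, and in each of them the 3 SK-N-AS libraries lay above the 3 KELLY libraries. Such separation toward SK-N-AS was seen in 33.5% of the 17089 genes tested. Of the 10 genes, 9 passed edgeR's quasi-likelihood test at a Benjamini-Hochberg adjusted p under 0.05, against 61.3% of all genes tested in either direction and 30.3% toward SK-N-AS. The exception was ETV5. The median log2 fold change, SK-N-AS over KELLY, was 2.42 for the 10 genes and -0.02 for all genes, whose 90th percentile was 2.34. In these bulk samples, fewer cells with a transcript and less of it per cell cannot be told apart.

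**Figure D1:**
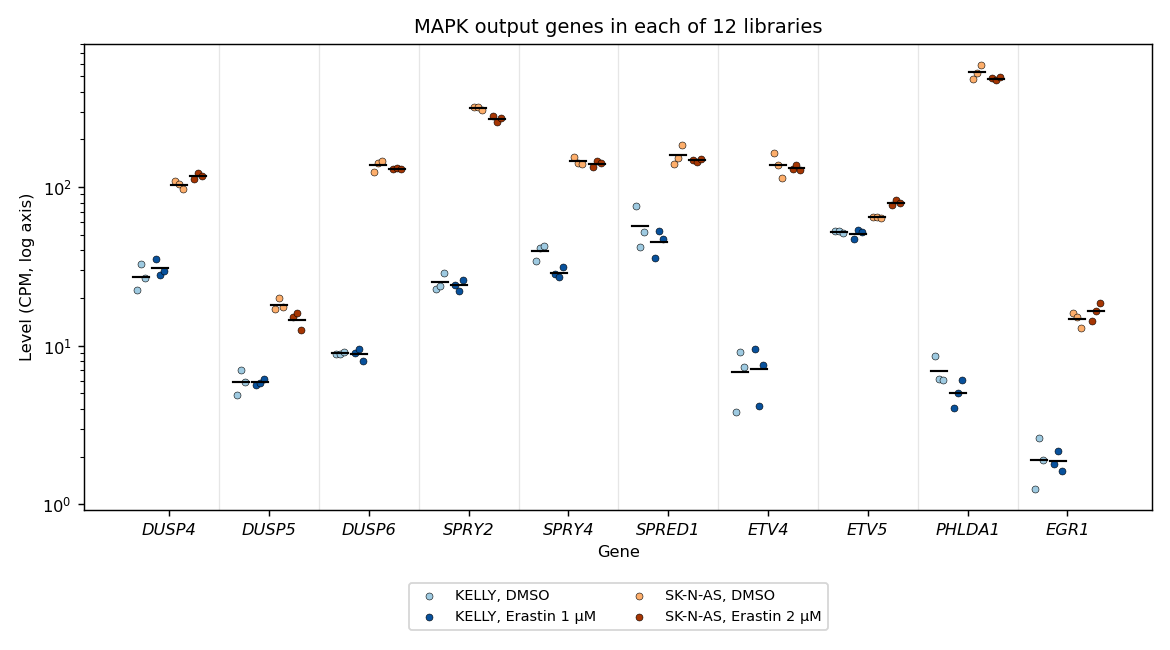
Level of each MAPK output gene in CPM (log axis) in the 12 libraries, by cell line and treatment. Points are single libraries and bars are means of 3. For each gene the SK-N-AS points lie above the KELLY points, from a small step in ETV5 (52.5 to 64.4 CPM with DMSO) to a large one in PHLDA1 (6.97 to 532 CPM), and Erastin points lie close to their DMSO points.

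DUSP4, DUSP5 and DUSP6 encode phosphatases that dephosphorylate MAP kinases, DUSP6 acting on ERK in the cytoplasm and DUSP4 and DUSP5 in the nucleus. DUSP6 (chromosome 12, 89347235 to 89352501, minus strand, GRCh38) was at 8.83, 8.90 and 9.13 CPM in the 3 KELLY controls and at 125, 142 and 147 CPM in the 3 SK-N-AS controls. The KELLY values were nearly equal and lay far below all SK-N-AS values. Its log2 fold change was 3.93 (standard error, SE, 0.15, adjusted p = 1.60e-07 from edgeR), a 15.3-fold difference with a 95% interval of 12.1 to 19.3. DUSP4 was at 22.4, 32.7 and 26.8 CPM in KELLY and at 109, 105 and 97.1 CPM in SK-N-AS, which is 3.76-fold higher (interval 2.87 to 4.92, adjusted p = 1.67e-05 from edgeR). DUSP5 (chromosome 10, 110497907 to 110511533, plus strand) was at 4.90, 6.99 and 5.91 CPM in KELLY and 17.1, 19.9 and 17.6 CPM in SK-N-AS. This was a 3.03-fold difference (interval 2.25 to 4.08, adjusted p = 9.56e-05 from edgeR). The cytoplasmic phosphatase thus differed by more than the nuclear pair, with intervals that did not meet.

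SPRY2 and SPRY4 encode Sprouty proteins, which restrain RAS activation by receptor tyrosine kinases, and SPRED1 brings neurofibromin to the membrane, where it turns RAS off. SPRY2 (chromosome 13, 80335976 to 80341126, minus strand) was at 22.8, 23.9 and 28.8 CPM in KELLY and 321, 320.2 and 308 CPM in SK-N-AS. The replicates of each line stood close together and the lines were 12.5-fold apart (interval 9.88 to 15.7, log2 fold change 3.64, SE 0.15, adjusted p = 2.13e-07 from edgeR). SPRY4 (chromosome 5, 142310427 to 142326455, minus strand) was at 34.2, 41.1 and 42.6 CPM in KELLY and at 155, 142 and 140.0 CPM in SK-N-AS. Its difference was 3.67-fold (interval 2.93 to 4.60, adjusted p = 6.21e-06 from edgeR). SPRED1 (chromosome 15, 38252836 to 38357249, plus strand) spread most among these inhibitors, with 75.9, 41.9 and 52.0 CPM in KELLY and 141, 153 and 184 CPM in SK-N-AS. The 3 KELLY libraries still lay below the 3 SK-N-AS libraries, and the difference was 2.78-fold (interval 1.94 to 3.98, adjusted p = 4.98e-04 from edgeR).

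ETV4 and ETV5 are ETS transcription factors of the PEA3 family, induced by ERK and in turn carriers of its transcriptional program. ETV4 (chromosome 17, 43527844 to 43579620, minus strand) was at 3.81, 9.14 and 7.38 CPM in KELLY and 164, 137 and 115 CPM in SK-N-AS. KELLY replicates spread widely, yet all lay far below SK-N-AS, with a log2 fold change of 4.34 (SE 0.32, adjusted p = 5.17e-06 from edgeR), or 20.3-fold (interval 12.2 to 33.6). ETV5 (chromosome 3, 186046314 to 186110318, minus strand) was at 53.0, 53.0 and 51.5 CPM in KELLY and at 64.6, 64.4 and 64.2 CPM in SK-N-AS. The groups were tight and did not overlap, but the difference of 1.22-fold (interval 1.00 to 1.48) missed the threshold in the fit across all genes (log2 fold change 0.28, SE 0.12, adjusted p = 0.0769 from edgeR). It passed when each library's GC trend was removed, at a log2 fold change of 0.28 (adjusted p = 0.00465 from edgeR). In that fit 74.0% of all genes passed and so did all 10 of these. The trend was taken against the mean of each line, so removing it narrows replicate spread and can hardly move a difference between lines. ETV5 also passed with DESeq2 (0.30, adjusted p = 0.0241, where 62.9% of all genes passed).

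PHLDA1, a protein with a pleckstrin homology-like domain, and EGR1, an immediate-early zinc finger factor, are outputs of the pathway that do not act on the cascade directly. PHLDA1 (chromosome 12, 76025447 to 76031776, minus strand) was at 8.67, 6.18 and 6.05 CPM in KELLY and at 480.3, 527 and 588 CPM in SK-N-AS. No SK-N-AS library came near the KELLY range. The difference was 75.5-fold (interval 54.3 to 105, log2 fold change 6.24, SE 0.21, adjusted p = 1.14e-07 from edgeR), and 602 of 17089 genes had a larger log2 fold change. EGR1 (chromosome 5, 138465479 to 138469303, plus strand) was the lowest of the 10 per length in each line, at 1.24, 2.60 and 1.89 CPM in KELLY and 16.1, 15.1 and 13.0 CPM in SK-N-AS. Its log2 fold change was 2.93 (SE 0.27, adjusted p = 2.10e-05 from edgeR), with 32 to 64 counts in the KELLY libraries. For PHLDA1 and EGR1 the groups stood well apart.

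**Figure D2:**
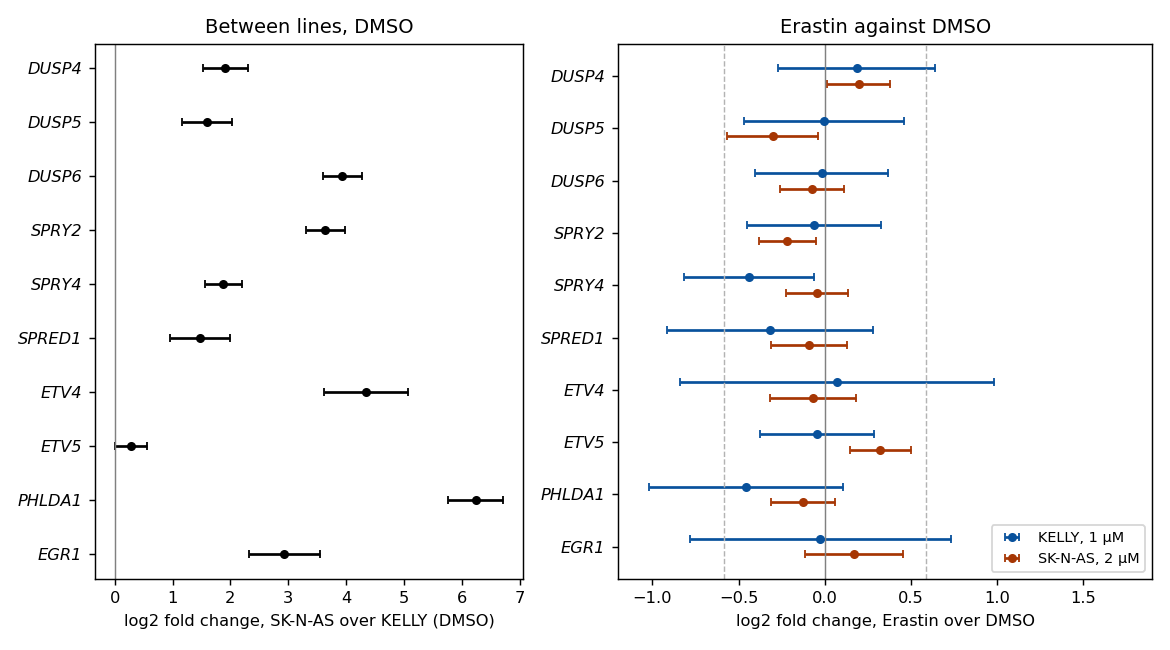
Log2 fold changes of the 10 genes with 95% intervals from edgeR, between DMSO controls of the 2 lines (left) and for Erastin against DMSO within each line (right, blue for KELLY at 1 µM and brown for SK-N-AS at 2 µM). The dashed lines mark a fold of 1.5 in either direction. Between lines the values run from 0.28 (ETV5) to 6.24 (PHLDA1), and within lines from -0.46 to 0.32.

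Levels of different genes were compared per length, as CPM per kilobase of exon. In KELLY controls the order of mean levels was ETV5 (9.09 CPM per kilobase), SPRY2 (7.83), SPRED1 (7.30), SPRY4 (5.99), DUSP4 (3.75), DUSP5 (2.34), DUSP6 (2.32), ETV4 (1.93), PHLDA1 (1.18) and EGR1 (0.609). Among neighbors in this order, only SPRY4 and DUSP4, DUSP4 and DUSP5, and PHLDA1 and EGR1 had ranges that did not overlap. In SK-N-AS controls SPRY2 (98.5 CPM per kilobase) and PHLDA1 (89.9) led, followed by ETV4 (39.5), DUSP6 (35.8), SPRY4 (22.2), SPRED1 (20.5), DUSP4 (14.3), ETV5 (11.2), DUSP5 (7.17) and EGR1 (4.70). There the pairs SPRY2 and PHLDA1, ETV4 and DUSP6, and SPRY4 and SPRED1 overlapped, and every other pair of neighbors was separate. ETV5 thus moved from the first place in KELLY to the eighth in SK-N-AS, and EGR1 was last in both.

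Ratios between relatives within a library carry no scaling between libraries, and they differed between the lines as well. The GC trend of a library can still enter them. The ratio of ETV4 to ETV5 per length was 0.118, 0.284 and 0.235 in the KELLY controls and 4.16, 3.50 and 2.94 in the SK-N-AS controls. ETV5 was the more abundant of the pair in every KELLY control and ETV4 in every SK-N-AS control. The ratio of DUSP6 to DUSP4 was 0.743, 0.513 and 0.643 in KELLY and 2.18, 2.54 and 2.85 in SK-N-AS, and that of SPRY2 to SPRY4 was 1.36, 1.18 and 1.38 against 4.22, 4.60 and 4.48. In each of the 3 ratios the lines did not overlap. No p is given for these ratios, since 3 libraries against 3 cannot go below 0.1 in an exact permutation test. Summed over the 10 genes, KELLY controls held 231 ± 4.78 CPM (SD, n = 3) and SK-N-AS controls 1631 ± 40.4 CPM (SD, n = 3), of which PHLDA1 made up 3.01% and 32.6%.

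Other genes of the pathway were read from 3 lists. Of 34 further ERK output and feedback genes, 32 were tested between the controls and 28 were called (87.5%, against 61.3% of all genes). Of these 28, 23 were higher and 5 lower in SK-N-AS, where 30.3% of all genes were called higher. The median log2 fold change over the 32 was 1.57. SPRY1, another Sprouty, was higher by 5.60 on the log2 scale (SE 0.15, adjusted p = 4.99e-08 from edgeR), and the receptor EPHA2 by 4.18. FOSL1, an AP-1 subunit that ERK stabilizes, had at most 2 counts in a KELLY control and was at 94.7 CPM in SK-N-AS controls. IER3 was at 0.421 and 217 CPM, and HMGA2 at 0.140 and 118 CPM. Not every relative leaned this way: the phosphatases DUSP2, DUSP8 and DUSP9 were lower in SK-N-AS, by -3.43, -2.93 and -0.91, and DUSP1 differed by -0.05 (SE 0.15, adjusted p = 0.788 from edgeR). CCND1, the cyclin D1 gene, and ETV1, another PEA3 factor, were higher by 0.63 and 1.13 (adjusted p = 0.00112 and 9.73e-04 from edgeR), and EPHA4 by 0.76 without passing (adjusted p = 0.0629 from edgeR).

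Of 24 immediate-early genes other than EGR1, 20 were tested and 16 called (80%, against 61.3% of all genes). Of these 16, 13 were higher and 3 lower in SK-N-AS, where 30.3% of all genes were called higher. The median over the 20 was 1.02. FOS was higher by 1.91, KLF4 by 4.25, ZFP36 by 2.43 and CCN1 by 6.09 on the log2 scale, whereas the nuclear receptor genes NR4A1 and NR4A3 and the antiproliferative BTG2 were lower, by -1.11, -2.85 and -1.57. Among 32 components of the cascade itself, 31 were tested and 20 called (64.5%, near the 61.3% of all genes). Of these 20, 14 were higher (against 30.3% of all genes) and 6 lower, and the median over the 31 was 0.45. MAPK3, which encodes an ERK kinase, differed by -0.07 and did not pass (adjusted p = 0.825 from edgeR). MAP2K1 and MAP2K2, which encode MEK, differed by 0.59 each, of which MAP2K1 passed (adjusted p = 0.00373 from edgeR) and MAP2K2 did not (0.0856). NRAS and BRAF were lower in SK-N-AS, by -0.53 and -0.74 (adjusted p = 0.0293 and 0.00510 from edgeR), as were MRAS and SOS1 (-1.21 and -0.83). RRAS, RRAS2 and the adaptor SHC1 were higher, by 4.62, 2.43 and 1.59.

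**Figure D3:**
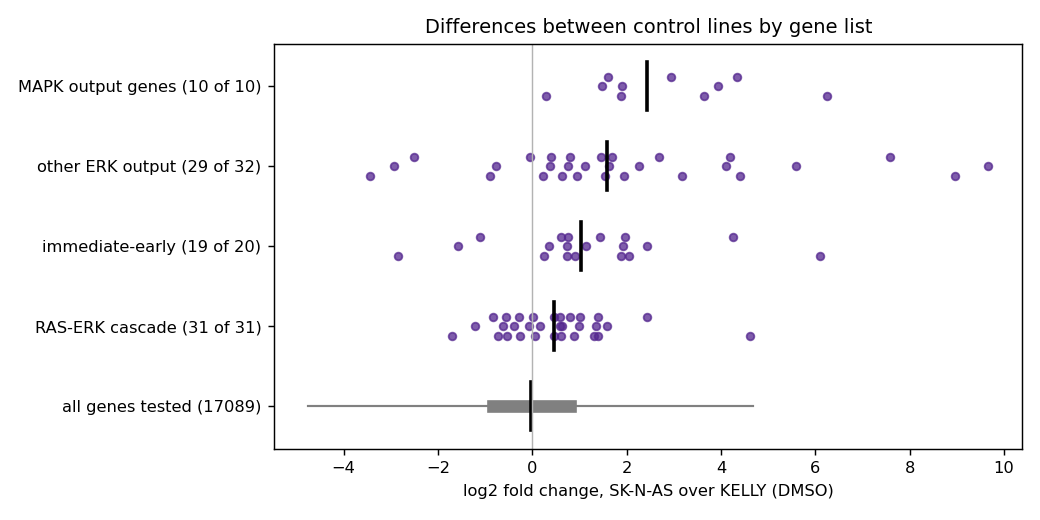
Log2 fold change between DMSO controls, SK-N-AS over KELLY, for the MAPK output genes and 3 other lists. Points are genes, black bars are medians over all tested genes of a list, and genes with at most 3 counts in every library of a group are not drawn as points. The grey line spans the 5th to 95th percentile of all 17089 genes tested and the thick part the 25th to 75th. Medians fall from 2.42 (output genes) over 1.57, 1.02 and 0.45 to -0.02 for all genes.

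The second comparison asked whether Erastin altered these outputs in KELLY. None of the 10 genes passed edgeR's test (0 of 10, against 1 of 16258 genes, or 0.00615%, over the whole table) or that of DESeq2 (0 of 10), and 1 had an unadjusted p under 0.05 in edgeR (2.64% of all genes). The median log2 fold change was -0.04, with 2 genes above 0 and 8 below. No gene met the cutoff used in the study's methods (fold of 1.5 or more and unadjusted p of 0.05 or less), which 2.03% of all genes met. These Erastin contrasts share their DMSO samples with the comparison of the lines.

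SPRY4 was the one gene whose KELLY groups did not overlap, as happened in 8.54% of all genes. It was at 34.2, 41.1 and 42.6 CPM with DMSO and at 28.2, 27.1 and 31.3 CPM with Erastin, lower in each treated library than in each control. Its log2 fold change was -0.44 (SE 0.16, 95% interval -0.82 to -0.07, unadjusted p = 0.0270, adjusted p = 0.770 from edgeR). With the GC trend of each library removed it was -0.52 (SE 0.10, adjusted p = 0.165 from edgeR), and it did not pass under any of 16 alternatives. The ratio of SPRY2 to SPRY4 per length was 1.36, 1.18 and 1.38 with DMSO and 1.74, 1.66 and 1.69 with Erastin, so these did not overlap either.

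PHLDA1 was at 8.67, 6.18 and 6.05 CPM with DMSO and 4.06, 5.00 and 6.12 CPM with Erastin in KELLY, and the highest treated library lay within the controls. Its log2 fold change was -0.46 (SE 0.24, interval -1.02 to 0.10, adjusted p = 0.770 from edgeR). SPRED1 was at 35.8, 53.1 and 47.1 CPM with Erastin, against 75.9, 41.9 and 52.0 CPM with DMSO. Its -0.32 (interval -0.92 to 0.28) became 0.01 once the GC trend was removed. ETV4, at 9.52, 4.19 and 7.57 CPM with Erastin, was at 0.07 (interval -0.84 to 0.98) and at -0.25 without the GC trend.

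The remaining KELLY genes lay near 0. DUSP4 was at 35.3, 28.0 and 29.6 CPM with Erastin, a log2 fold change of 0.18 (interval -0.27 to 0.64), and of 0.08 with the GC trend removed. DUSP5, at 5.62, 5.85 and 6.19 CPM, and DUSP6, at 8.95, 9.50 and 8.00 CPM, were at -0.01 and -0.02. SPRY2 was at 24.1, 22.1 and 25.9 CPM, a log2 fold change of -0.06. For these last 3 and for ETV5, which was at 46.8, 53.3 and 52.2 CPM and at -0.05 (interval -0.38 to 0.28), the interval lay within a fold of 1.5 in either direction. EGR1, at 1.81, 2.17 and 1.63 CPM, was at -0.03 with an interval of -0.78 to 0.73, which reaches past a fold of 1.5 in both directions. It had 32 to 64 counts in the control libraries and 44 to 56 in the treated ones. Summed over the 10 genes, KELLY libraries held 236, 226 and 232 CPM with DMSO and 200.1, 210.2 and 215 CPM with Erastin (231 ± 4.78 against 209 ± 7.81 CPM, SD, n = 3 each), and the groups did not overlap. The largest falls in mean were those of SPRED1 (56.6 to 45.3 CPM) and SPRY4 (39.3 to 28.9 CPM), while DUSP4 and ETV4 were higher. On the log2 scale the SPRED1 change became 0.01 with the GC trend removed. How often sums of 10 other genes separate was not tested.

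In SK-N-AS none of the 10 genes passed edgeR's test after Erastin (0 of 10, against 106 of 16095 genes, or 0.659%). An unadjusted p under 0.05 was found for 4 of 10 (against 8.77% of all genes), namely DUSP4, DUSP5, SPRY2 and ETV5, and in the same 4 the groups did not overlap (14.8% of all genes). They pointed in different directions, and the median over the 10 was -0.07. All 10 intervals lay within a fold of 1.5, from 0.674 to 1.41, and no gene met the cutoff of the study's methods (2.67% of all genes).

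ETV5 was at 64.6, 64.4 and 64.2 CPM with DMSO and at 77.6, 82.5 and 80.0 CPM with Erastin in SK-N-AS. Every treated library was above every control. The log2 fold change was 0.32 (SE 0.08, fold 1.25, interval 1.11 to 1.41, unadjusted p = 0.00183, adjusted p = 0.141 from edgeR). It passed with DESeq2 (adjusted p = 0.0357, 1.39% of all genes), with the GC trend removed (adjusted p = 9.47e-04 from edgeR, 6.00% of all genes) and without DMSO replicate 3 (adjusted p = 0.0189 from edgeR, 5.20% of all genes). ETV4 did not share this, at 164, 137 and 115 CPM with DMSO and 129.9, 137 and 128 CPM with Erastin, a log2 fold change of -0.07 (interval -0.32 to 0.18). The ratio of ETV4 to ETV5 per length was 4.16, 3.50 and 2.94 with DMSO and 2.75, 2.73 and 2.62 with Erastin, lower in all treated libraries. ETV4 followed the GC trend of the 6 SK-N-AS libraries (Pearson r = 0.94) and ETV5 did not (r = -0.10), and no ratio with the trend removed was computed.

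SPRY2 was at 321, 320.2 and 308 CPM with DMSO and at 282, 258 and 271 CPM with Erastin in SK-N-AS, where the groups did not overlap. Its log2 fold change was -0.22 (SE 0.08, unadjusted p = 0.0141, adjusted p = 0.366 from edgeR), and -0.23 with the GC trend removed, where it passed (adjusted p = 0.0103 from edgeR). DUSP4 was at 109, 105 and 97.1 CPM with DMSO and 113, 123 and 118 CPM with Erastin, higher in each treated library. Its 0.20 (SE 0.08, adjusted p = 0.514 from edgeR) became 0.19 (adjusted p = 0.0178) with the GC trend removed. DUSP5 went the other way, at 17.1, 19.9 and 17.6 CPM with DMSO and 15.2, 16.0 and 12.6 CPM with Erastin, a log2 fold change of -0.30 (SE 0.12, interval -0.57 to -0.04, adjusted p = 0.466 from edgeR). Of the nuclear phosphatases, one was therefore higher and the other lower in the treated libraries, and DUSP5 passed under none of the alternatives. In all, 3 of the 10 genes passed with the GC trend removed, where 6.00% of all genes passed. PHLDA1 joined them when replicate number was a block as well (4 of 10, where 10.2% of all genes passed).

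The other SK-N-AS genes overlapped between treatments. PHLDA1 was at 480.3, 527 and 588 CPM with DMSO and at 486, 473 and 493 CPM with Erastin, a log2 fold change of -0.13 (interval -0.31 to 0.06). EGR1, at 14.2, 16.6 and 18.6 CPM with Erastin, was at 0.17 (interval -0.11 to 0.45). DUSP6 was at 129.3, 132 and 130.2 CPM with Erastin, at -0.07 (interval -0.26 to 0.11). SPRY4, at 133, 146 and 143 CPM, was at -0.04, against -0.44 in KELLY, where it did not pass either. SPRED1, at 148, 143 and 152 CPM, was at -0.09. Summed over the 10 genes, the level was 1631 ± 40.4 CPM with DMSO and 1533 ± 9.73 CPM with Erastin (SD, n = 3 each), and here too the groups did not overlap. The largest falls in mean were those of PHLDA1 (532 to 484 CPM) and SPRY2 (316 to 270 CPM), while DUSP4, ETV5 and EGR1 were higher. PHLDA1 alone, whose groups overlapped, made up 32.6% of the DMSO sum. As in KELLY, how often sums of other genes separate was not tested.

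Whether the response differed between the lines was tested as the interaction of line and treatment over all 12 libraries, given as SK-N-AS minus KELLY. None of the 10 genes passed edgeR's test (0 of 10, against 1 of 18239 genes, or 0.00548%) or that of DESeq2 (0 of 10), and SPRY4 and ETV5 had an unadjusted p under 0.05 (2 of 10, against 4.25% of all genes). SPRY4 differed by 0.39 (SE 0.16, interval 0.04 to 0.74, unadjusted p = 0.0314, adjusted p = 0.811 from edgeR). ETV5 differed by 0.36 (SE 0.14, interval 0.06 to 0.66, unadjusted p = 0.0218, adjusted p = 0.811 from edgeR). With the GC trend removed the differences were 0.47 and 0.38, with adjusted p of 0.164 and 0.238 from edgeR. Intervals of the other 8 genes held 0, and the widest, that of ETV4, ran from -1.06 to 0.77.

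The same 3 lists were read under Erastin. In KELLY no gene passed among 28 tested output and feedback genes, 18 immediate-early genes and 31 cascade components in edgeR's test (0.00615% of all genes), where 1, 0 and 1 had an unadjusted p under 0.05 (2.64% of all genes). In SK-N-AS 1 of 31 output and feedback genes, 1 of 21 immediate-early genes and 0 of 31 cascade components passed (0.659% of all genes). An unadjusted p under 0.05 was found there for 10, 8 and 1 of them (8.77% of all genes). The median log2 fold changes of the 3 lists in SK-N-AS were -0.16, 0.02 and -0.02, against -0.01 for all genes, with 7 of the 31 output and feedback genes above 0. IL11, a cytokine gene, fell by 0.75 on the log2 scale (SE 0.13, adjusted p = 0.0166 from edgeR), and KLF2, a zinc finger factor of the immediate-early list, rose by 1.52 (SE 0.20, adjusted p = 0.00293 from edgeR). CCND1 was at -0.34 in SK-N-AS (SE 0.07, adjusted p = 0.0681 from edgeR) and at -0.22 in KELLY. ETV1 was at -0.63 in KELLY (SE 0.25, adjusted p = 0.770 from edgeR).

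ETV4 had the widest spread among control replicates in both lines, with a coefficient of variation of 40.1% in KELLY and 17.6% in SK-N-AS. ETV4 and SPRED1 are also the genes of the 10 with the highest and the lowest GC content, 60.6% and 36.3% of the bases of the longest transcript. The median was 47.6% over the 12627 genes used for the trend. In each library the GC trend was measured as Spearman's correlation, across 12627 genes that are not independent replicates, between GC content and the log2 ratio to the mean of the line. It ran from -0.82 to 0.85 over the KELLY libraries and from -0.72 to 0.75 over the SK-N-AS libraries, with both signs in each group. Ordered by this trend, the 6 KELLY libraries stood in the exact order of their ETV4 levels and in the reverse order of their SPRED1 levels. DUSP4, at 51.4% GC, rose with the trend as closely in these 6 libraries (Pearson r = 0.92, against 0.89 for ETV4). KELLY control replicate 1, with the lowest trend, had the lowest ETV4 (3.81 CPM) and the highest SPRED1 (75.9 CPM) of its line, and KELLY Erastin replicate 1, with the highest trend, had the highest ETV4 (9.52 CPM) and the lowest SPRED1 (35.8 CPM). ETV5, at 48.4% GC, stayed within 46.8 to 53.3 CPM over the same libraries. Removing the trend lowered the biological coefficient of variation over all genes from 0.246 to 0.142 in KELLY, from 0.105 to 0.0571 in SK-N-AS and from 0.198 to 0.113 between controls. What made the trend was not tested.

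**Figure D4:**
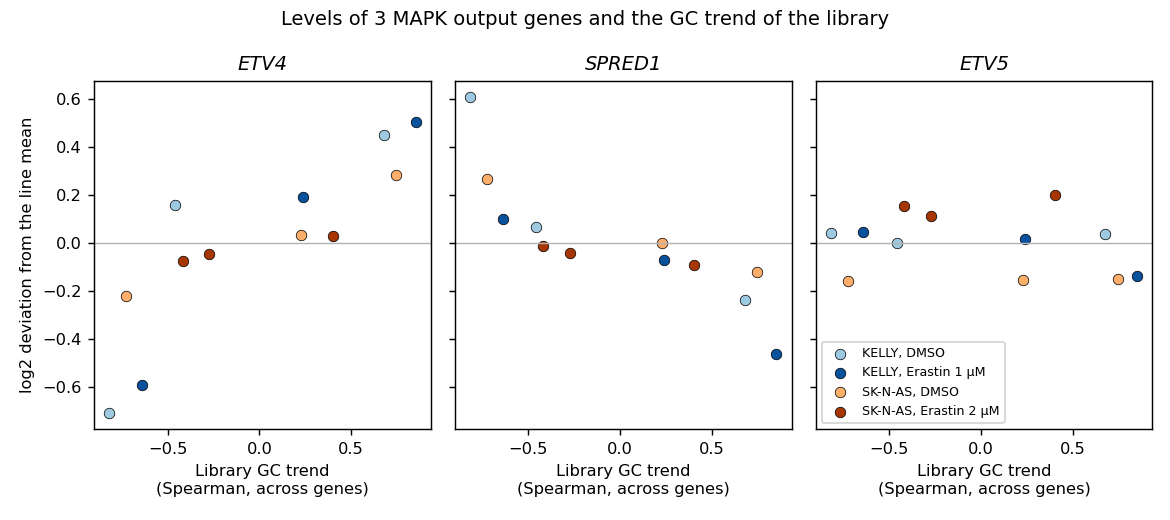
Log2 deviation of ETV4, SPRED1 and ETV5 from the mean of their line (vertical axis) against the GC trend of each library (horizontal axis, Spearman correlation across 12627 genes). Points are the 12 libraries, colored by line and treatment. Broadly, ETV4 rises and SPRED1 falls from the libraries with negative trend to those with positive trend, while the ETV5 points of SK-N-AS split by treatment instead.

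Some of the genes overlap others in the annotation, and whether counting used strand is not given in the sources used here. ETV4 overlaps DHX8 on the opposite strand, which had 3936 to 6452 counts per library, more than ETV4 had in KELLY. ETV5 overlaps DGKG on its own strand (4 to 205 counts) and ETV5-AS1 (0 to 14 counts), and SPRY4 overlaps SPRY4-AS1 (0 to 29 counts). Reads shared with such partners cannot be told apart here.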

How the data were processed

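RNA-seq of 12 samples was used, 3 in each of 4 groups of line and treatment taken from the sample labels. The authors obtained counts per gene from paired-end reads with HTSeq (GENCODE annotation, GRCh38) and deposited them raw, without normalization, for genes of all biotypes. The submitters' processing notes also name Trimmomatic and DESeq2. The aligner and any use of strand are not given in the sources used here. The methods select protein-coding genes, whereas the deposited tables hold all, and 1568 of 58735 gene names repeat another. For RNA-seq the paper's methods describe seeding in triplicate and do not say whether the replicates were independent experiments. The intervals and p may thus cover only the spread between wells seeded together. No 2 libraries were copies.

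Counts were fitted in R 4.3.3 with edgeR 4.0.16 (filterByExpr, TMM scaling, quasi-likelihood test, Benjamini-Hochberg adjustment over all genes tested, threshold 0.05), separately for each line, between the DMSO controls, and for the interaction over 12 libraries. Standard errors are the log2 fold change over the square root of F, and intervals are at 95%. Exon length and GC content came from GENCODE release 44 on GRCh38 and matched 36579 names by symbol and 870 by an older symbol. Alternatives were a fit by DESeq2 1.42.0, scaling by RLE or by library size, another filter (none, or a minimum of 10 counts per sample), coding genes alone, replicate number as a block, a loess curve on GC content as an offset (span 0.5, degree 2), block and curve together, 1 joint fit of 12 libraries, and each replicate left out. The loess curve was fitted to each library's deviation from the mean of its own line. Counts were also simulated with 100 genes changed by 1 on the log2 scale, picked among genes above a minimum expected count. Genes were drawn independently, without a GC trend, and all unchanged genes were equal between groups. The data differ from this setting, above all between controls, where 61.3% of all genes passed. Of the 100 changed genes, 26 were recovered in KELLY, 100 in SK-N-AS, 55 between controls and 27 for the interaction. At a change of 2 the numbers were 94, 100, 97 and 90, and false calls numbered 8, 10, 13 and 6. On its own, the lack of a call in KELLY or for the interaction thus says little about changes of 1 or less. The genes, lists and tests were chosen with earlier results of these data known. All 10 genes are named, and of the other lists up to 3 called genes in each direction with the largest change, and 14 genes chosen by role. Sequences are RefSeq promoter windows on GRCh38.p14, with ETV4, ETV5 and DUSP5 not matched and DUSP4 not printed.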

Additional observations from a re-analysis of the deposited data

How the results depend on the processing

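Between the controls, 9 of the 10 genes passed under all 16 alternatives and no direction changed over 160 fits of single genes, while ETV5 passed in 4 of them (0.28 to 0.30). In SK-N-AS with Erastin 1 of the 10 genes passed with DESeq2 (1.39% of all genes) and 3 with the GC correction (6.00% of all genes). With block and GC correction together 4 passed (10.2% of all genes), which added PHLDA1 (-0.14, adjusted p = 0.0211 from edgeR). With a replicate left out 0 to 1 passed (5.20% of all genes without DMSO replicate 3, where ETV5 passed). In KELLY and for the interaction no alternative gave a call. Values near 0 changed sign. With the replicate block DUSP5 and EGR1 became 0.00534 and 0.0139 in KELLY, and DUSP4 became -0.000542 in the interaction, where it was -0.023 without a filter. With the GC correction, and with block and GC correction, KELLY values were 0.0115 and 0.00821 for DUSP6, 0.00619 and 0.00683 for SPRED1 and -0.25 and -0.25 for ETV4, and in the interaction SPRED1 was at -0.10 and -0.10 and ETV4 at 0.23 and 0.23. The cause was not tested.

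With a replicate left out, KELLY values ran from -0.12 to 0.12 for DUSP5, -0.077 to 0.040 for DUSP6, -0.13 to 0.038 for SPRY2, -0.21 to 0.34 for ETV4, -0.083 to 0.0054 for ETV5 and -0.26 to 0.25 for EGR1. In SK-N-AS they ran from -0.071 to 0.00468 for SPRY4, -0.18 to 0.024 for SPRED1 and -0.19 to 0.069 for ETV4, and in the interaction from -0.15 to 0.13 for DUSP4, -0.054 to 0.39 for SPRED1, -0.41 to 0.14 for ETV4 and -0.087 to 0.42 for EGR1. Over all genes the number of calls ranged from 0 to 32 in KELLY, 46 to 1639 in SK-N-AS, 7608 to 12648 between controls and 1 to 17 for the interaction. The labels do not say whether replicate numbers pair the samples. Correlations of same-numbered deviations across 13194 genes ran from -0.82 to 0.39. They cannot decide it, because the libraries also differ in their GC trend. In SK-N-AS the block lowered the biological coefficient of variation from 0.105 to 0.0904. With the replicate block 9 of the 10 genes passed between controls, where 9041 of 17089 genes passed. None of the 10 passed elsewhere (308 of 16095 genes in SK-N-AS with Erastin). EGR1 had the fewest counts of the 10 genes in KELLY, 32 to 64 per library, and what its depth adds to its interval was not tested.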
